A study of Mus musculus with 768 samples.

Results

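The 9 RGS genes described here, *Rgs2*, *Rgs3*, *Rgs4*, *Rgs5*, *Rgs7bp*, *Rgs10*, *Rgs12*, *Rgs16* and *Rgs17*, were chosen by symbol from the 24490 endogenous genes of the tables, which hold 15 further RGS-named genes. They were followed across single mesenchymal cells of mouse mammary tumors, by cell class and by how they varied together. All wells came from 2 tumors of 14-week-old MMTV-PyMT mice of the strain FVB/N-Tg(MMTVPyVT)634Mul/J, in which the mouse mammary tumor virus promoter drives the polyoma middle T oncogene. Cells had been sorted as EpCAM-, CD45-, CD31- and NG2-, a negative gate against epithelial, immune and endothelial cells and pericytes, and no untreated or tumor-free group was included. Each tumor was sorted into 1 multiwell plate of its own, 1 cell to a well. The 2 tumors are therefore the only replicates, and a tumor and its plate cannot be told apart.

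RGS proteins bind the active α subunit of heterotrimeric G proteins and speed its hydrolysis of GTP, which ends the signal of a G protein-coupled receptor. Small members such as Rgs2, Rgs4, Rgs5 and Rgs16 consist of little more than the RGS domain, whereas Rgs3 and Rgs12 also exist as long scaffold proteins. *Rgs5* is widely used as a marker of pericytes and other mural cells, the contractile cells that surround blood vessels.

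Of 768 wells, 727 had at least 10000 endogenous reads and were kept, 97.1% of the wells of tumor 1 and 92.2% of those of tumor 2, with 10281 to 1190516 reads per well. Libraries were made by Smart-seq2, which reads along the whole transcript. A cell was called vascular when its log2(RPKM + 1) of *Higd1b* was at least 5 and above that of *Dcn*, and matrix when *Dcn*, which encodes the proteoglycan decorin, was at least 7 and above *Higd1b*. RPKM is reads per kilobase of gene model and 1000000 reads, the scale on which genes of different length can be compared. This gave 491 vascular cells, 69.2% and 65.8% of the kept wells of tumors 1 and 2, with 92 and 83 matrix cells and 23 and 38 wells of neither class. Within 1 log2 unit of a limit lay 14 wells for *Higd1b* and 28 for *Dcn*. The labels fitted their marker lists, in which no RGS gene takes part. All 12 vascular markers were higher in vascular cells and all 12 matrix markers were lower, the cutting genes *Higd1b* and *Dcn* included. Of 6 smooth muscle markers, 3 were also higher in vascular cells, with a summed mean RPKM of 2088 and 1708 in vascular against 592 and 880.0 in matrix cells. *Cspg4*, which encodes the sorted antigen NG2, was read in 85.3% and 90.6% of vascular cells. Of the 7 endothelial markers, *Pecam1* and *Cdh5* were read in none of the vascular cells, *Egfl7* in 9.30% and 6.44%, and *Emcn*, which encodes endomucin, in 36.4% and 54.5%. *Emcn* was the 1 of 3 tested that was called, higher in vascular than in matrix cells (9.65 on the log2 scale, adjusted p = 0.000664, edgeR). The part of *Emcn* in the results below was not tested. *Egfl7* was also higher, without a call (2.45, adjusted p = 0.0704, edgeR). *Tek* went the other way, also without a call (-6.01, adjusted p = 0.0626, edgeR). Reads of *Tek* were found in 0% and 1.29% of vascular cells, against 20.7% and 7.23% of matrix cells. The summed mean RPKM of the endothelial list was 69.5 and 128.2 in vascular cells and 7.81 and 6.65 in matrix cells. Vascular cells held a median of 201498 and 191070 reads per cell and matrix cells 266269 and 233504. They also held 4045 and 4195 genes per cell against 5484 and 5476, and a larger share of ERCC spike-in reads, 14.4% and 12.3% against 6.55% and 6.35%. The part of these differences in the results below was not tested, apart from the thinned and spike-in-scaled values given beside them.

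The members were first placed in the genome, on GRCm38, the assembly of the authors' mm10 alignment. *Rgs5* (chr1:169655501-169695813, plus strand) and *Rgs4* (chr1:169741477-169747642, minus strand) are neighbours, with their 3′ ends facing each other across 45663 bases that hold 0 RefSeq genes. *Rgs16* (chr1:153740353-153745468, plus strand) and *Rgs2* (chr1:143999338-144004149, minus strand) lie on the same chromosome. The other 5 members are on other chromosomes. *Rgs10* is at chr7:128373621-128419506 on the minus strand and *Rgs7bp* at chr13:104945904-105054930 on the minus strand. *Rgs3* (chr4:62559835-62703019, plus strand) overlaps the long non-coding gene *Gm52741*, *Rgs12* (chr5:34948929-35039642, plus strand) the microRNA gene *Mir3097*, and *Rgs17* (chr10:5825663-5922412, minus strand) the pseudogene *Gm18902*. The counting of these 3 overlapping pairs could not be separated here.

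The promoters of the 3 members with the largest rise in vascular cells and of *Rgs10*, the member with the largest fall, are shown so that genes moving the same way can be compared. Each is the 250 bases before the RefSeq start site, GRCm38.p6, read 5′ to 3′ on the strand of the gene, at chr1:169655251-169655500 for *Rgs5*, chr1:169747643-169747892 for *Rgs4*, chr1:153740103-153740352 for *Rgs16* and chr7:128418173-128418422 for *Rgs10*. The window of *Rgs10* precedes an internal start and so lies within the span of the gene given above. Capitals mark a TATA box (TATAAA) or a GC box (GGGCGG) on either strand.
Rgs5: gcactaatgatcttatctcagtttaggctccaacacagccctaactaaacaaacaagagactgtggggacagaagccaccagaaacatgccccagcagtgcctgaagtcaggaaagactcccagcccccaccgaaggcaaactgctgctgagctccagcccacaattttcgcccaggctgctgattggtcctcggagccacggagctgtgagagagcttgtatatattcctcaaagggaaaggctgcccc
Rgs4: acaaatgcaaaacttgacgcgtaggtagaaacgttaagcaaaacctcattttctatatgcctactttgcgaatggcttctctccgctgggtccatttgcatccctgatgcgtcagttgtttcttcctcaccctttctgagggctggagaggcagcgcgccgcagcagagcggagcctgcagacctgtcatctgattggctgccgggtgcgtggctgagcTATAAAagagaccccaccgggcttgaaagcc
Rgs16: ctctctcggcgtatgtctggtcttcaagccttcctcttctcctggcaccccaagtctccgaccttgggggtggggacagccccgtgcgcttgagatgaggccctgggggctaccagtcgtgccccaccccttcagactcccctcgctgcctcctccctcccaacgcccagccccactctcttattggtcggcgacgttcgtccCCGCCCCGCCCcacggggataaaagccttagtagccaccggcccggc
Rgs10: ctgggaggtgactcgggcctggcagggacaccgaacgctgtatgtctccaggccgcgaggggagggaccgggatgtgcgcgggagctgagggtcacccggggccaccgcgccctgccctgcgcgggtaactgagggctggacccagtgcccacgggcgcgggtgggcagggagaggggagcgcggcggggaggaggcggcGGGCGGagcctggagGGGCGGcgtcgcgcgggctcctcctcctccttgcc

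Among the windows shown, those of *Rgs5*, *Rgs4* and *Rgs16* shared none of the motifs searched. *Rgs3*, the other member higher in vascular cells, has 2 windows, not shown, which both held a TATA box as *Rgs4* did, and 1 of which held a GC box as *Rgs16* did. *Rgs4* held a TATA box 31 to 26 bases before its start, a motif present in 12.4% of the 32851 promoter windows of this length. *Rgs16* held 2 GC boxes that share 1 base, and *Rgs10* held 2 apart, against 32.7% of windows with at least 1. *Rgs4* also held 4 E-boxes (CANNTG, 66.2% of windows, not capitalised), and the other 3 promoters had none. The window of *Rgs5* held none of the 6 motifs. Neither a cAMP response element (TGACGTCA, 1.55% of windows), nor the RBPJ core TGGGAA (21.6%), nor a CArG box (1.47%) occurred in any of the 4 windows. The window of *Rgs2*, the other member lower in vascular cells, is not shown. It held 4 GC boxes, a motif it shared with *Rgs10* and *Rgs16*, and none of the other motifs.

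To ask how the members differed between the 2 classes, reads were summed per tumor and class into 4 libraries of 53670000 and 46996860 reads for vascular and 24090335 and 19393596 for matrix cells. Of the 7 members with a mean RPKM of at least 1, 4 were higher in vascular cells (*Rgs5*, *Rgs4*, *Rgs16* and *Rgs3*) and 2 were lower (*Rgs10* and *Rgs2*) by edgeR's quasi-likelihood test at a Benjamini-Hochberg adjusted p of 0.05 over all genes. Over the 11715 genes tested, 6.5% were called higher and 9.45% lower. The median log2 fold change was 1.36 over the 7 members and 0.03 over all genes. *Rgs12* was not called, and *Rgs7bp* and *Rgs17* were too low to be tested.

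*Rgs5*, a regulator of Gαi and Gαq signals, was the most abundant member in vascular cells. Its counts per 1000000 reads (CPM, which do not correct for gene length) were 12357 and 10982 in the vascular libraries and 367.04 and 61.1 in the matrix libraries. Both vascular libraries were far above both matrix libraries, and the matrix libraries differed more from each other than the vascular ones. The fitted difference was 5.48 on the log2 scale (SE 0.92, adjusted p = 0.0157, edgeR), a 44.8-fold higher level, with 4.79 in tumor 1 alone and 7.20 in tumor 2 alone. By mean RPKM, *Rgs5* ranked 2 among all genes in the vascular cells of each tumor, and it made up 86.4% and 83.3% of the summed mean RPKM of the 9 members there. In matrix cells it made up 55.3% in tumor 1 and 22.8% in tumor 2, where *Rgs4* (27.03%) and *Rgs10* (23.7%) were above it.

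In single vascular cells the log2(RPKM + 1) of *Rgs5* ran from 3.48 over a median of 12.50 to 13.97 in tumor 1 and from 7.43 over 12.40 to 13.75 in tumor 2, so every vascular cell had reads of it. The matrix level of *Rgs5* came from few wells. Its median over matrix cells was 7.38 RPKM in tumor 1 and 5.37 in tumor 2, against 5803 and 5409.7 over vascular cells. In tumor 1 the 3 highest matrix wells carried 62.1% of the class's *Rgs5* reads, and in tumor 2 the 3 highest carried 80.7%. An RPKM of 100 was reached in 8 of 92 matrix wells of tumor 1, of which 4 met the limits of both class genes, and in 3 of 83 of tumor 2, of which 2 did. Without the 14 wells that met both limits, left out after seeing these values, the difference was 6.42 (adjusted p = 0.00722). Most other matrix wells held few reads of it, but not all. Among wells with an RPKM of *Higd1b* under 10, 93.98% of 83 in tumor 1 and 86.1% of 72 in tumor 2 had an *Rgs5* read, with a median of 4 and 2 reads per well against 2322 and 1851 in vascular cells. The highest of these wells reached an RPKM of 3852 in tumor 1 and 39.5 in tumor 2. The source of these few reads was not tested.

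*Rgs4*, which acts on the same classes of α subunit, came second in vascular cells. Its CPM were 2127 and 2897 in the vascular and 171.4 and 162.6 in the matrix libraries. The classes did not overlap, and the 2 matrix libraries were close to each other. With 2 libraries to a class, a lack of overlap is a description here and below. Its share over all genes is not given. The difference was 3.64 (SE 0.22, adjusted p = 0.000798), a 12.4-fold higher level, and it was 4.97 with stricter class limits and 5.29 with classes cut from marker lists. *Rgs4* had the smallest adjusted p of the 7 members tested and was the only one called by edgeR at a limit of 0.001. The study used that limit in another test, with single cells and not summed libraries as replicates. As for *Rgs5*, 3 wells carried 75.8% and 69.7% of its matrix reads.

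*Rgs16*, a small and inducible member, followed. Its CPM were 674 and 533 in the vascular and 57.1 and 74.97 in the matrix libraries, again without overlap. The difference was 2.92 (SE 0.23, adjusted p = 0.00144), a 7.58-fold higher level, and it was 4.21 with stricter class limits and 3.61 with classes cut from marker lists. The 3 highest matrix wells held 60.6% and 80.6% of its matrix reads, and the median matrix cell had no read of it in either tumor.

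**Figure D1:**
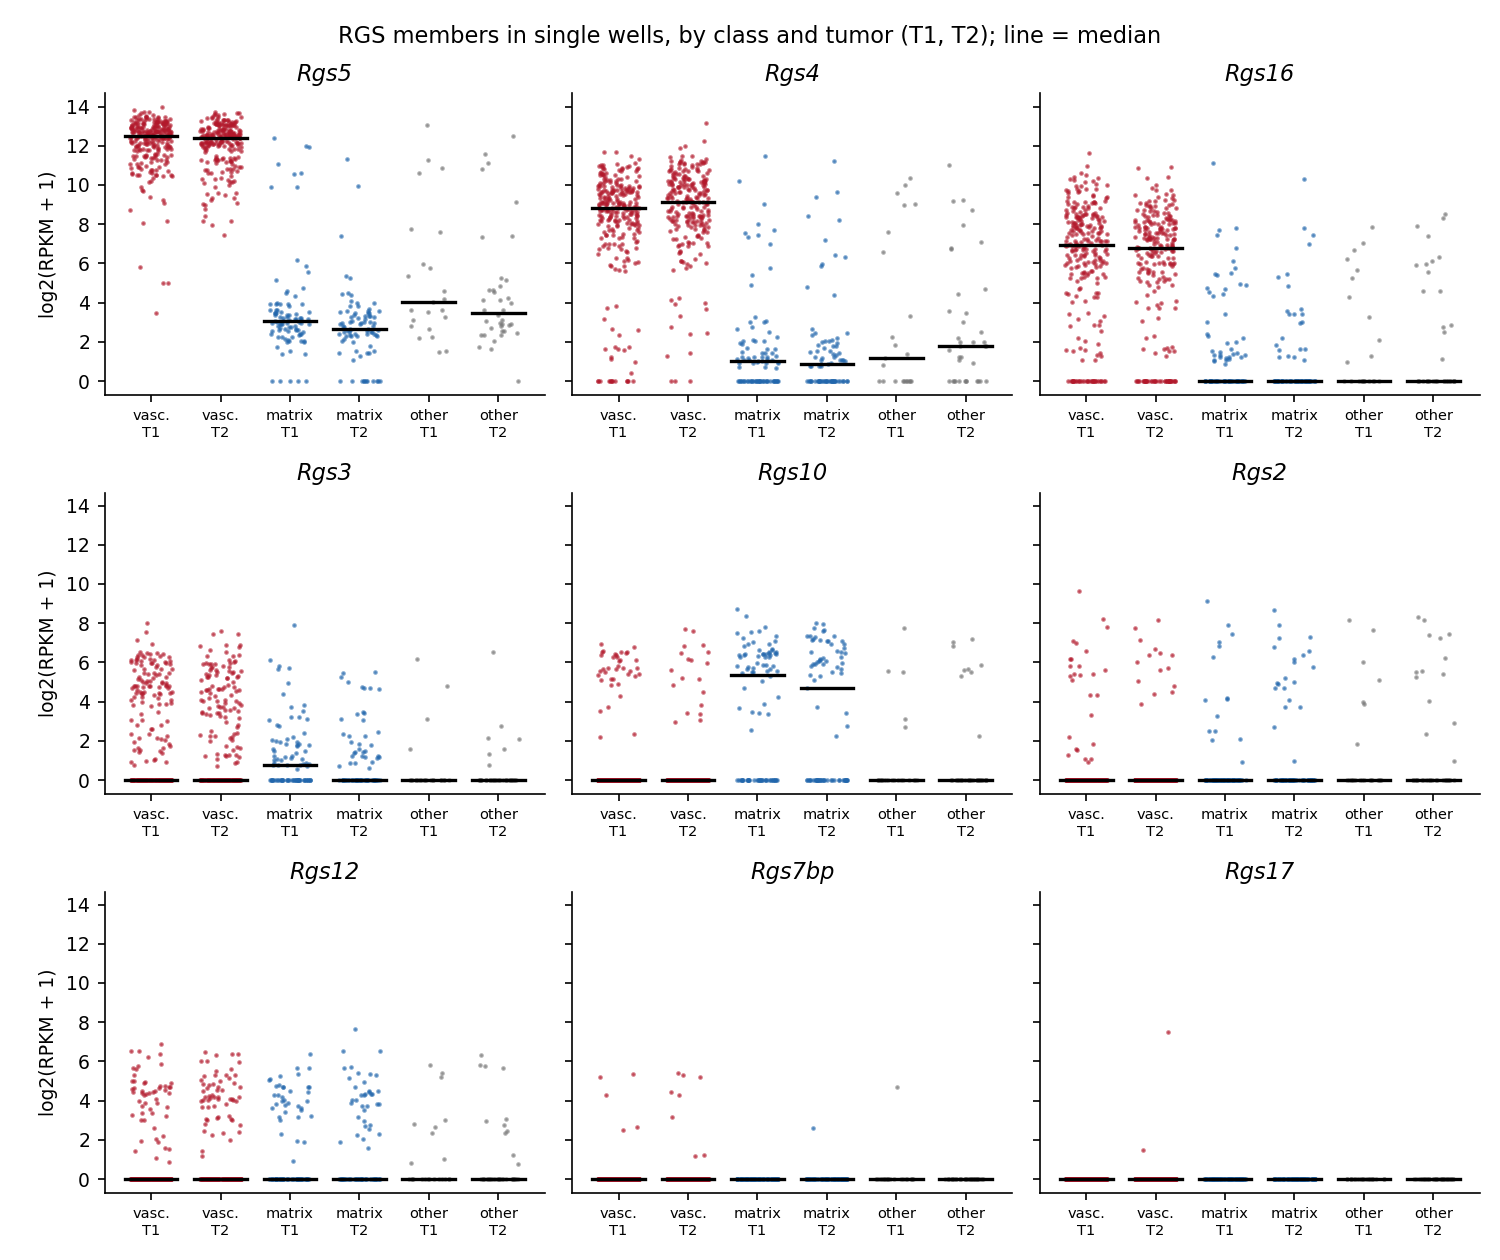
log2(RPKM + 1) of the 9 members in single wells of each class and tumor (T1 and T2). Each point is 1 well and the line is the median. *Rgs5* has a median near 12 in vascular cells and near 3 in matrix cells of both tumors, while *Rgs10* is the member whose median is above 0 in matrix and at 0 in vascular cells of both tumors.

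*Rgs3*, whose long forms carry further protein-binding domains, rose less. Its CPM were 80.7 and 69.6 in the vascular and 29.4 and 18.9 in the matrix libraries. The difference was 1.36 (SE 0.29, adjusted p = 0.0341), a 2.57-fold higher level. The call, but not the sign, was lost with ERCC totals as the library size (0.76, adjusted p = 0.0985), without wells with a read of *Epcam*, *Pecam1* or *Ptprc* (1.45, adjusted p = 0.0713) and with stricter class limits (1.45, adjusted p = 0.0539). The share of cells with a read went the other way in tumor 1, 46.5% of vascular against 54.3% of matrix cells, but matrix cells with a read had a median RPKM of only 2.48, against 26.5 in vascular cells. Of the reads of *Rgs3* in matrix cells, 53.7% and 40.7% lay in 3 wells.

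*Rgs10*, a small member known mainly from microglia and other myeloid cells, showed the opposite pattern. Its CPM were 8.89 and 5.64 in the vascular and 54.5 and 50.2 in the matrix libraries. It was 8.70-fold lower in vascular cells (log2 -3.12, SE 0.33, adjusted p = 0.00367). The matrix reads were spread over many wells, with 20.2% and 17.4% of them in the 3 highest. No well that met both class limits was among those with an RPKM of 100 or more. The immune markers, which include the myeloid genes *Cd68*, *Csf1r*, *C1qa* and *Lyz2*, had a summed mean RPKM of 10.3 and 6.78 in matrix cells and 1.81 and 2.99 in vascular cells, 3 of 7 of them without a read in the matrix cells of each tumor. Their part in the *Rgs10* values was not tested.

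*Rgs2*, which prefers Gαq, was also lower in vascular cells, with CPM of 29.1 and 20.9 against 53.6 and 69.5. The difference was -1.57 (SE 0.28, adjusted p = 0.0182), and the libraries did not overlap. It rested on few cells. Only 15 of 92 and 21 of 83 matrix cells had a read of *Rgs2*, and 3 wells held 80.7% and 58.2% of its matrix reads. Without wells with a read of *Epcam*, *Pecam1* or *Ptprc*, the call was lost (-1.03, adjusted p = 0.151).

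*Rgs12*, a multidomain scaffold, had CPM of 27.4 and 31.2 in the vascular and 39.4 and 53.4 in the matrix libraries. The libraries did not overlap, but the difference of -0.93 (SE 0.25, adjusted p = 0.0667) was not called, with a 95% interval from -1.57 to -0.30. With ERCC totals as the library size it was called (-1.54, adjusted p = 0.0140), as it was by DESeq2 (adjusted p = 0.00860). With this scaling the median of all genes moved from 0.03 to -0.57, and *Rgs5* (4.90), *Rgs4* (3.04), *Rgs16* (2.31), *Rgs10* (-3.74) and *Rgs2* (-2.19) kept their sign and call. *Rgs7bp*, which anchors RGS7-type complexes at the membrane and holds no RGS domain itself, was read in 5 and 8 vascular cells, in 1 of 83 matrix cells of tumor 2 and in 0 of 92 of tumor 1, where a count of 0 leaves room for a share of up to 3.26% of cells with a read, taken as 3 counts of the total and for counting error only. *Rgs17* was read in 2 vascular cells of tumor 2 alone.

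**Figure D2:**
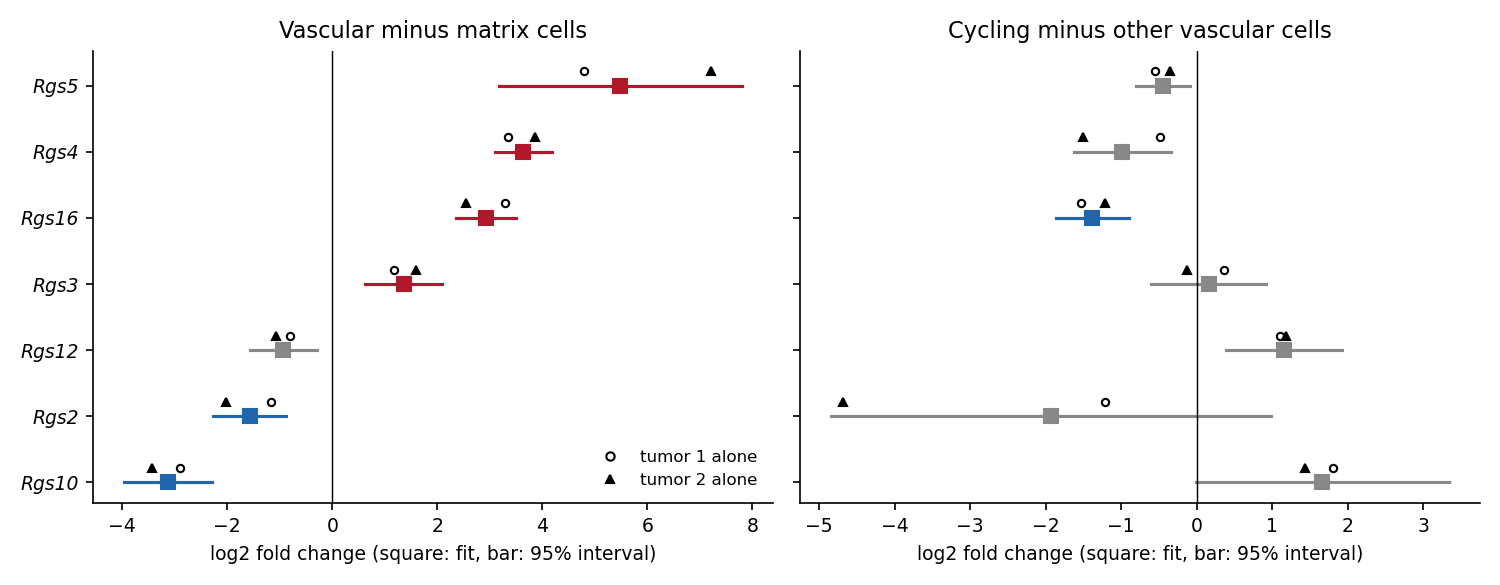
log2 fold change of the 7 members tested, for vascular minus matrix cells (left) and cycling minus other vascular cells (right). Squares are the edgeR fit with its 95% interval, coloured where called (red higher, blue lower, grey not called), and small symbols are each tumor alone. The 4 members higher in vascular cells lie right of 0 in both tumors, and *Rgs16* is the only member called in the right panel.

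Since deeper cells give more chances of a read, each cell was also thinned to 50000 reads, leaving out 8 and 11 shallower vascular and 6 and 4 matrix cells. *Rgs5* was then read in 100.0% of vascular cells of both tumors and in 54.7% and 45.6% of matrix cells, down from 94.6% and 86.7% before thinning. *Rgs4* was read in 92.4% and 97.3% of vascular and 26.7% and 27.8% of matrix cells. *Rgs16* was read in 84.4% and 82.9% of vascular and 19.8% and 16.5% of matrix cells. The thinned share of *Rgs3* was 41.6% and 43.2% in vascular against 25.6% and 22.8% in matrix cells, in the order of its CPM. *Rgs10* was read in 12.8% and 6.76% of vascular and 53.5% and 53.2% of matrix cells. *Rgs12* was read in 19.6% and 25.2% of vascular and 37.2% and 40.5% of matrix cells.

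**Figure D3:**
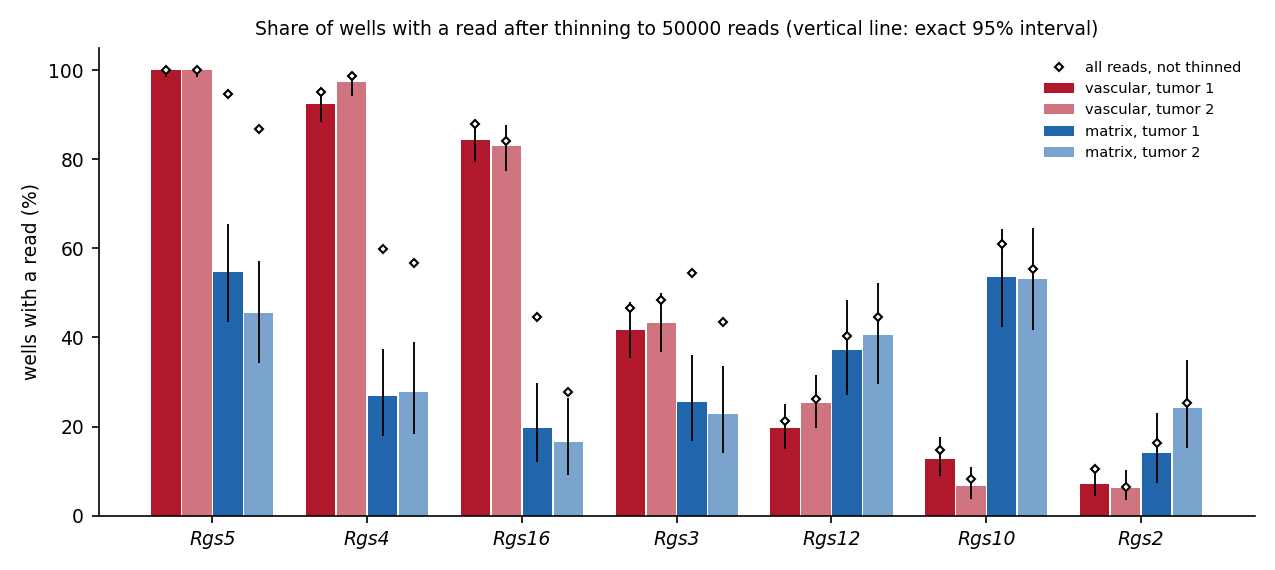
Percent of vascular (red) and matrix (blue) cells of each tumor with a read of 7 members. Bars are cells thinned to 50000 reads with exact 95% binomial intervals as vertical lines, and diamonds are the values without thinning. *Rgs5*, *Rgs4* and *Rgs16* stand higher in vascular cells, *Rgs10* stands higher in matrix cells, and thinning lowers the matrix share of *Rgs5* the most.

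Other genes of the pathway were taken from fixed lists, whose counts stand against 6.5% of all genes called higher and 9.45% called lower. Of the 15 other RGS genes, 2 could be tested. *Rgs19* was lower in vascular cells (-1.04, SE 0.19, adjusted p = 0.0211) and *Rgs11* was not called (-4.02, adjusted p = 0.212). Of the Gα genes, which encode the substrates of RGS proteins, 1 of 12 was called, *Gna14*, which was lower (-3.52, adjusted p = 0.0301), a share near that of all genes. Of 10 Gβ and Gγ genes tested 2 were higher, *Gnb4* (1.66) and *Gng11* (1.17). Receptors moved both ways, 10 of 29 higher and 9 lower, a median of 0.33 against 0.03 over all genes. *Adra2b*, an α-adrenergic receptor, had 6.93 and 17.3 CPM in the vascular and 0 reads in both matrix libraries, at least 170.5-fold higher against a floor of 3 reads over the group. *Ptger3*, *Htr2b* and *S1pr1*, receptors for prostaglandin E, serotonin and sphingosine-1-phosphate, had 1 to 4 reads in each vascular library, 0.0186 to 0.0851 CPM, and 14.7 to 42.4 CPM in the matrix libraries, and all 3 were called lower. Of 13 effectors 1 was higher, *Adcy6* (2.17), and 4 were lower, among them the adenylyl cyclases *Adcy7* (-6.16), *Adcy2* (-4.56) and *Adcy5* (-2.42). The receptor kinase *Grk5* was the 1 of 6 kinases and arrestins called higher (2.25, adjusted p = 0.0370). All 5 cGMP signalling genes tested were higher, *Gucy1a3* (3.59), *Gucy1b3* (3.42), *Pde5a* (2.51) and *Prkg1* (1.74) among them.

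Around *Rgs5* and *Rgs4*, 7 other genes of the tables lay within 500000 bases, and 5 were tested. Of these 2 were called, both lower in vascular cells, *Hsd17b7* (-1.62, adjusted p = 0.0266) and *Uap1* (-1.62, adjusted p = 0.0467). *Nuf2*, *Ddr2* and *Uhmk1* were not called.

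The co-variation of the members was then described by Spearman's ρ across the cells of each tumor, which share a plate and differ in depth, so that no p-value is given. Over all 727 kept wells the 3 leading members went together, with 0.53 and 0.61 for *Rgs4* and *Rgs5*, 0.55 and 0.54 for *Rgs5* and *Rgs16*, and 0.39 and 0.45 for *Rgs4* and *Rgs16*. *Rgs10* went against each of them, from -0.31 to -0.42. Within the 491 vascular cells little of this was left. *Rgs4* and *Rgs5* had -0.00070 and -0.037, *Rgs4* and *Rgs16* -0.052 and -0.017, and *Rgs5* and *Rgs16* 0.15 and 0.13. The *Rgs5* level of a vascular cell thus said little about its *Rgs4* level, although nearly all held reads of both. Within matrix cells, where many cells had no read, *Rgs4* and *Rgs5* had 0.24 and 0.19, and 0.38 and 0.37 after thinning to 50000 reads. All 3 genes were read in 84.1% and 82.8% of vascular cells, *Rgs5* and *Rgs4* without *Rgs16* in 10.9% and 15.9%, and *Rgs5* and *Rgs16* without *Rgs4* in 3.88% and 1.29%. In matrix cells all 3 were read in 23 of 92 and 16 of 83. Vascular cells with no read of *Rgs16* had a mean *Rgs5* RPKM of 4137 and 4085, against 6027 and 5629 in those with one, and they were also shallower, with a median of 155377 and 160035 reads against 206667 and 198180.

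**Figure D4:**
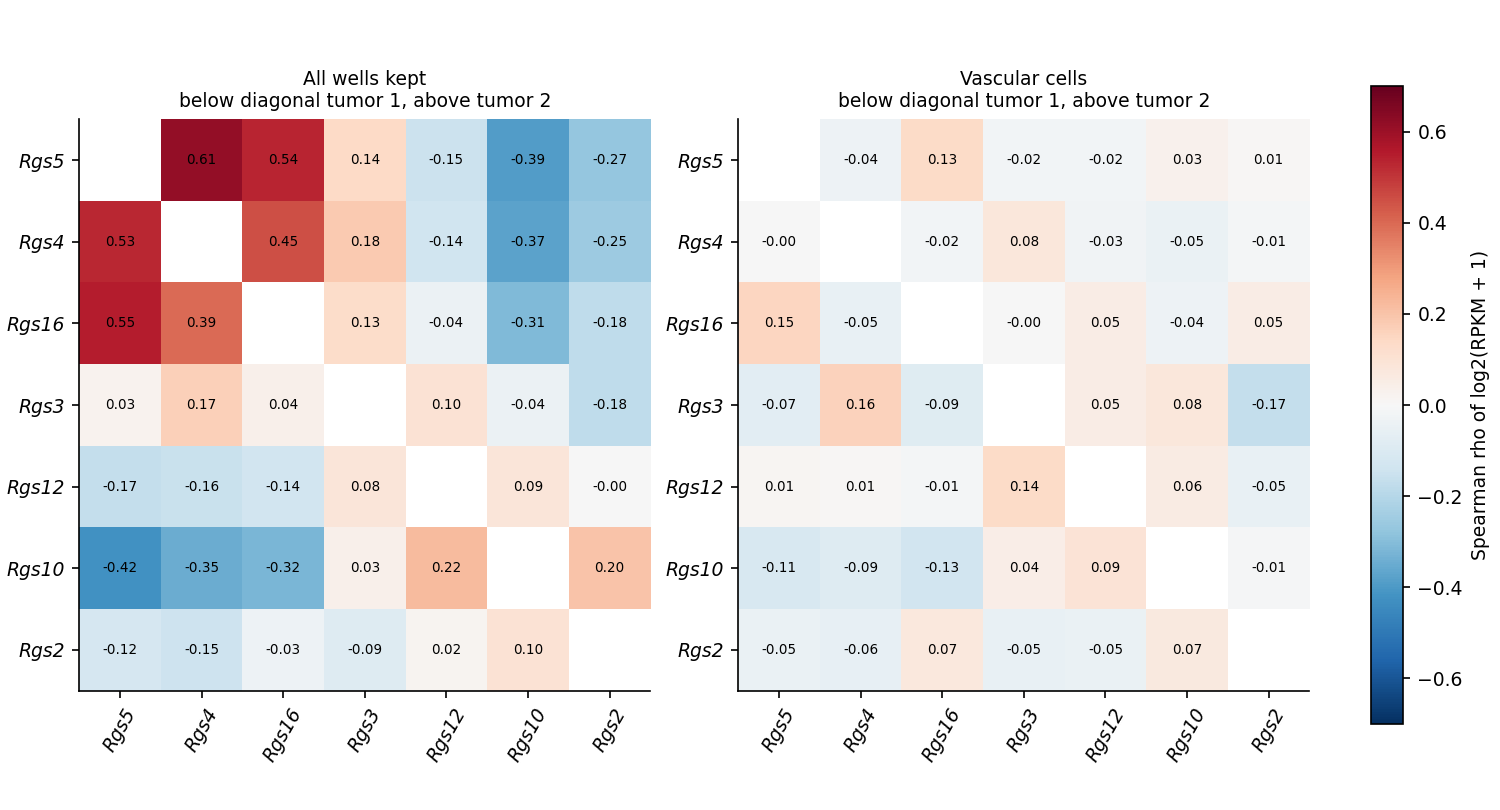
Spearman's ρ of log2(RPKM + 1) between 7 members over all kept wells (left) and within vascular cells (right), tumor 1 below and tumor 2 above the diagonal. The block of *Rgs5*, *Rgs4* and *Rgs16*, at 0.39 to 0.61 on the left, lies between -0.05 and 0.15 on the right.

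For the 4 members read in at least 25% of the vascular cells of both tumors, the genes most like them were ranked by the lower ρ of the 2 tumors. Over all wells vascular marker genes were among them. *Rgs5* was most like *Notch3* (0.75 and 0.80), *Higd1b*, *Ndufa4l2*, *Atp1b2* and *Vtn*. *Rgs4* was most like *Kcnj8* (0.66 and 0.76), *Abcc9*, *Gjc1*, *Sparcl1* and *1810011H11Rik*. For *Rgs16* no gene ranked above *Rgs5* itself, followed by *Prkacb* (0.51 and 0.54), *Mcam*, *Gm13889*, *Des* and *Apold1*. *Rgs3* was most like *Cspg4* (0.33 and 0.37), *Ttyh2*, *Cd248*, *S1pr3* and *Gng11*.

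Within vascular cells each of the 4 went with a different set. *Rgs5* went with *Vtn*, encoding vitronectin (0.51 and 0.52), *Olfr558* (0.50 and 0.52), *Ccnd2* (0.47 and 0.48), the receptor gene *Notch3* (0.45 and 0.55) and the integrin gene *Itga7* (0.43 and 0.48). *Rgs4* went with *Kcnj8* (0.39 and 0.54) and *Abcc9* (0.26 and 0.34), which encode the subunits of a potassium channel gated by ATP, the gap junction gene *Gjc1* (0.28 and 0.34), the sphingosine-1-phosphate receptor gene *S1pr3* (0.31 and 0.35) and the cathepsin gene *Ctsb* (0.28 and 0.40). *Rgs3* went with the thrombin receptor gene *F2r* (0.32 and 0.34), *S1pr3* (0.29 and 0.33), *Ttyh2*, *Cotl1* and *Cspg4*. *Rgs16* went with *Zfp36* (0.36 and 0.32), *Nr4a1* (0.32 and 0.30), *Egr1* (0.35 and 0.27), *Nfkbia* (0.27 and 0.28) and *Slc25a25* (0.29 and 0.27).

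The sets crossed in part. With the 5 genes of *Rgs5*, *Rgs4* had values from -0.22 to 0.18, *Rgs3* from -0.11 to 0.09 and *Rgs16* up to 0.25. With those of *Rgs4*, *Rgs16* had values from -0.07 to 0.14, *Rgs5* from -0.15 to 0.24 and *Rgs3* from -0.05 to 0.33. With those of *Rgs16*, *Rgs5* had values from -0.04 to 0.18, *Rgs4* from -0.21 to 0.12 and *Rgs3* from -0.07 to 0.09. With those of *Rgs3*, *Rgs4* had values from -0.03 to 0.35, *Rgs16* from -0.16 to 0.09 and *Rgs5* from -0.49 to 0.08. *S1pr3* was shared by *Rgs4* and *Rgs3*, and *F2r*, most like *Rgs3*, went against *Rgs5* (-0.49 and -0.35). Since each set was chosen for its own member, the high values are a description.

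**Figure D5:**
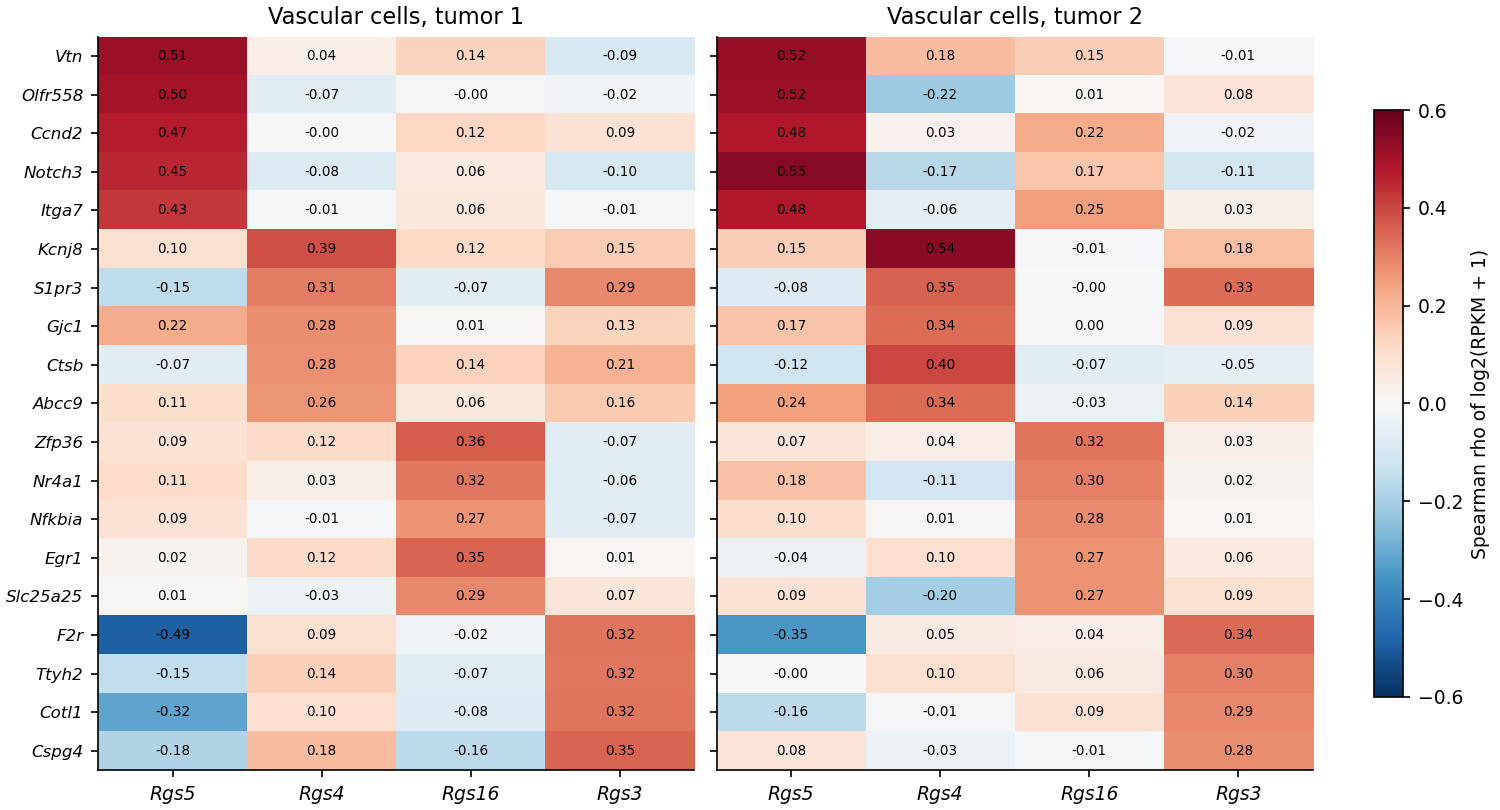
Spearman's ρ within vascular cells between 4 members (columns) and the genes most like each of them (rows), tumor 1 left and tumor 2 right. Each member's own rows are at 0.26 or above in both tumors, as their choice by the lower ρ of the 2 tumors fixes, with *S1pr3* belonging to *Rgs4* and *Rgs3* and *F2r* below 0 for *Rgs5*.

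Of the 5 genes that went with *Rgs16*, 3 (*Zfp36*, *Nr4a1* and *Egr1*) belong to a list of 16 immediate early and dissociation stress genes, which rise within minutes of a stimulus, tissue digestion included. With the mean log2 level of that list *Rgs16* had a ρ of 0.42 and 0.36 in vascular cells and 0.18 and 0.28 in matrix cells, while *Rgs4* and *Rgs5* had between 0.04 and 0.08 in vascular and between -0.19 and -0.03 in matrix cells. *Rgs2* had 0.18 and 0.13 in vascular and 0.23 and 0.20 in matrix cells. In matrix cells *Rgs3* had 0.23 and 0.10 and *Rgs10* 0.21 and 0.13, so that in tumor 1 all 3 were above *Rgs16* there. Of the 16 genes of the list edgeR called 2 between the classes, both lower in vascular cells, *Egr2* (-1.86) and *Ier2* (-0.86), against 9.45% of all genes called lower. At an unadjusted p under 0.05 there were 8, a limit for which no share of all genes is given here. DESeq2 called 8, against 10.98% of all genes called higher and 14.3% lower by DESeq2. The median of the list was -0.46 against 0.03 over all genes, and it had a summed mean RPKM of 3830 and 3269 against 4288 and 2868. Its part in the level of *Rgs16* was not tested.

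Finally, cycling vascular cells, 25 in each tumor with at least 3 of 8 cycling genes at an RPKM of 10 or more, were compared with the other vascular cells. *Rgs16* fell, with CPM of 250.6 and 239.6 in the cycling and 733 and 577 in the other libraries (log2 -1.38, SE 0.19, adjusted p = 0.0362, edgeR), a 2.60-fold lower level. It was the 1 of 7 members called lower, against 0.187% of the 11204 genes tested. By edgeR 0 members were called higher, against 1.79% of all genes, with 1 at an unadjusted p under 0.05, *Rgs12* (p = 0.0109), which was also the 1 that DESeq2 called. The CPM of *Rgs4* were 1558 and 1084 in cycling against 2206 and 3167 in other cells (-0.98, unadjusted p = 0.0104, adjusted p = 0.156, edgeR). Those of *Rgs5* were 8697 and 8611 against 12865 and 11335 (-0.44, unadjusted p = 0.0232, adjusted p = 0.227, edgeR). For both genes the libraries did not overlap, which with 2 libraries against 2 is a description and no test. *Rgs12* had 51.4 and 59.2 against 24.1 and 26.97 (1.16, adjusted p = 0.161), and *Rgs10* 23.6 and 12.1 against 6.85 and 4.67 (1.67, adjusted p = 0.321). DESeq2 called *Rgs4*, *Rgs5* and *Rgs16* lower. The cycling cells held a median of 5543 and 5376 genes per cell and 8.43% and 8.30% ERCC reads, and the part of that was not tested. Of the receptors *Ednrb*, for endothelin, was the 1 of 23 called (-3.16, adjusted p = 0.0467). Of the 16 immediate early genes 0 were called by edgeR and 13 had an unadjusted p under 0.05. For that unadjusted limit no share of all genes is given here. DESeq2 called 9 of the list, against 939 of the 11204 genes tested, higher and lower together. The median of the list was -0.82 against -0.02 over all genes, and the part of that in the value of *Rgs16* was not tested.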

How the data were processed

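The authors deposited 2 tables for 768 wells. One holds counts: the authors had mapped single-end reads with STAR (mm10) and counted them over RefSeq gene models. The other holds RPKM, which the authors computed with rpkmforgenes from those alignments. Each well was placed by the plate in its label, which stands for 1 tumor, and 0 columns were left unused. Members and gene lists were chosen with earlier results of these data known. Counts were summed per tumor and class and tested with edgeR 4.0.16 (TMM, quasi-likelihood, Benjamini-Hochberg), with genes under a mean RPKM of 1 left out. Classes are cut from 2 genes of the same cells, so calls on their markers are no independent test of them. The classes of a tumor come from 1 animal and are paired, and deviations correlated by 0.144 and, for cycling cells, 0.106. Of each list at most 4 called genes are named, and for each member read in at least 25% of vascular cells the 5 most like it. Correlations used log2(RPKM + 1). Reads carry no molecular identifiers. Intervals of shares cover counting error only, while those of edgeR's fold changes include the variation between the summed libraries. No doublet caller was run. The edgeR test was also run on simulated counts with the same dispersion for all genes and no tumor effect. That run does not cover genes that vary more between the tumors, as *Rgs5* did in matrix cells. Promoters are RefSeq's, and all 9 members matched. Alternatives included DESeq2 1.42.0.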

Additional observations from a re-analysis of the deposited data

Results flagged for a closer look

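In the 41 wells under 10000 reads, which enter no comparison, reads of the leading members were still found. *Rgs5* took 0.137% of the reads of these wells in tumor 1 (7 of 11 wells) and 0.198% in tumor 2 (22 of 30 wells). *Rgs4* took 0.0603% and 0.0244%, and *Rgs16* 0.0329% and 0.011%. In tumor 2, 1 well each held reads of *Rgs2* (0.0232%) and *Rgs10* (0.0061%). All are above the 3 reads that a count of 0 allows. The difference of *Rgs3* between cycling and other vascular cells was of opposite sign in the tumors, 0.36 in tumor 1 and -0.12 in tumor 2, and whether the tumors differ was not tested.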

How the results depend on the processing

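The differences of the 7 tested members between vascular and matrix cells kept their sign under all 19 alternatives, 2 of which were added after seeing the data (without wells with both class genes, without wells with 3 developmental markers). With ERCC totals as library size 25.2% of the genes tested were lower in vascular cells, against 9.45%. With DESeq2's Wald test 10.98% were higher and 14.3% lower, and in cycling cells 5.37% and 3.01%, with 1 member higher and 3 lower. Without wells with a read of *Epcam*, *Pecam1* or *Ptprc*, 1741 of 11715 genes were called, higher and lower together, against 1869. There 1 member was lower, as *Rgs2* lost its call, and *Rgs3* lost its call as higher. At an adjusted p of 0.001, 0.316% of genes were higher and 1.04% lower in vascular cells, with 1 member higher and 0 lower, and in cycling cells edgeR called 0 genes either way (1.79% higher and 0.187% lower at 0.05) and 0 members lower. Without a gene filter, which adds genes to the test, 2.20% of genes were higher and 0.565% lower in cycling cells. *Rgs12* became a call with classes cut from marker lists (-0.97, adjusted p = 0.0445) and without cycling vascular cells (-1.11, adjusted p = 0.0481). *Rgs5* was 7.61 with classes from marker lists and 7.22 with stricter limits, where *Rgs2* was -2.61, and *Rgs5* was 4.77 against all other wells in place of matrix cells. The causes were not tested.

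With the tumor as replicate block, 7.79% of genes were higher and 11.1% lower in vascular cells and 1.80% and 0.232% in cycling cells, *Rgs5* was 6.00 (adjusted p = 0.00349), and no call of a member changed. In each tumor alone, without a test, the difference of *Rgs5* ranged from 4.79 to 7.20, and that of *Rgs2* in cycling cells from -4.68, from 5 reads in 1 cycling cell of tumor 2, to -1.21.

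The mean ρ of the tumors over all wells was 0.57 for *Rgs4* and *Rgs5*, 0.54 for *Rgs5* and *Rgs16* and 0.42 for *Rgs4* and *Rgs16*. Pearson's r was 0.79, 0.62 and 0.51, and with a pseudocount of 0.1 it was 0.77, 0.62 and 0.51. Within vascular cells the mean ρ was -0.019, 0.14 and -0.035. Pearson's r was 0.077 for *Rgs4* and *Rgs5* (0.090 with the pseudocount of 0.1) and 0.20 for *Rgs5* and *Rgs16* (0.22). After thinning, ρ was 0.13 for *Rgs5* and *Rgs16* and -0.070 for *Rgs4* and *Rgs16*.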

Other observations

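*Rgs2* was also looked at in the 61 wells of neither class, where its CPM (131.3 and 198.6) were above those of both classes in each tumor. These wells were split, after seeing this, by whether at least 3 of 7 developmental markers (*Scrg1*, *Mia*, *Trf*, *Sox9*, *Sox10*, *Spint2*, *Lcn2*) reached an RPKM of 10. *Rgs2* was read in 7 of 9 and 12 of 17 wells with the markers, at 287.1 and 324.5 CPM, and in 0 of 14 and 2 of 21 wells without, at 0 and 21.8 CPM. The wells without were shallower, with a median of 180902 and 47427 reads against 232294 and 239875. *Rgs5*, *Rgs4* and *Rgs16* showed the opposite order. Their mean RPKM was 7.95 and 7.98, 0.70 and 1.23, and 0.63 and 5.48 in wells with the markers, and 1076 and 670.3, 314.8 and 206.8, and 46.4 and 65.6 in wells without. Within the classes of tumor 2 the CPM of *Rgs2* were lower with the markers, at 25.7 against 76.1 in matrix and 4.04 against 21.3 in vascular wells, but the share of wells with a read was not, at 3 of 10 against 18 of 73 matrix and 14.3% of 7 against 6.19% of the other vascular wells. In tumor 1 the 3 matrix wells with the markers had 315.7 CPM, with a read in 1 of them, against 46.2 in the others, with a read in 14 of 89. The wells of neither class also had a summed mean RPKM of epithelial markers of 669.6 and 161.8, against 17.3 and 21.7 in matrix cells, whose part was not tested. The split was chosen on the same wells, and no test was run. Of the RGS genes outside the 9, *Rgs14*, which had at most 0.773 CPM in either class, reached 5.25 and 53.1 CPM in the wells of neither class, and was named after its values were seen.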
